A study of Mus musculus with 4 samples.

Results

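The loci of 10 Sox genes were examined for chromatin accessibility in immortalized mouse embryonic fibroblasts (imMEFs) with and without HAT1. The members were Sox2, Sox21, Sox4, Sox11, Sox12, Sox5, Sox6, Sox8, Sox9 and Sox18. A site of the accessibility table was counted as a Sox site if it overlapped the body of one of these genes or lay within 50 kb of its transcription start. By this rule 94 of 82325 sites were Sox sites. The 10 genes had been selected on measured values of the same KO against WT contrast, so the KO against WT differences given here for them describe the loci and are no independent test.

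ATAC-Seq reads out open chromatin as the DNA that Tn5, an enzyme carrying sequencing adapters, can reach and cut. There were 4 libraries, 2 from HAT1+/+ lines (WT) and 2 from HAT1-/- lines (KO), each made from a separate line derived from embryos of the C57bl6 background. All lines had been immortalized with the SV40 T antigen and were grown in DMEM with serum, so the controls carried the viral antigen too. Each library stands for 1 immortalized culture, so a difference between lines and a difference between libraries cannot be told apart. HAT1 acetylates newly made histone H4 before it is assembled into chromatin.

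Values are normalized counts per site, as scaled and rounded in the deposited table. Library medians lay between 51 and 53, the normalized totals between 8008069 and 8516263, and the Spearman correlations of library pairs between 0.835 and 0.891. The reads behind these totals were estimated at 9420000 and 11400000 for the WT lines (replicates 1, 2) and at 7830000 and 5650000 for the KO lines, so both KO libraries were the shallower ones. The site over the Hat1 promoter read 390 and 384 in WT and 438 and 368 in KO, and it gives no check of the genotype labels. Promoters of fibroblast markers were accessible for 10 of 10 genes, with sums of 2940 to 3293 in WT and 3303 to 3443 in KO. Of the blood markers, Ptprc, Spi1 and Cd3e had no promoter site, and sums over the list were 70 to 90 in WT and 78 to 114 in KO. Neural marker sums were 205 to 233 in WT and 215 to 250 in KO, with 3 of 5 genes holding a site. Epithelial sums were 169 to 271 against 135 to 210 with 4 of 5 genes, and endothelial sums 281 to 349 against 226 to 289 with 4 of 5. Chondrocyte marker sums were 496 to 525 in WT and 464 to 522 in KO, with 3 of 5 genes holding a site. These were Col2a1, Matn3 and Comp, whereas Acan and Col9a1 had no promoter site. In such bulk libraries a site open in fewer cells and a site less open in each cell cannot be told apart.

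SOX proteins bind DNA through an HMG box, a domain that fits into the minor groove and bends the helix, and they are sorted into groups by the similarity of that box. SOXB1 proteins such as SOX2 maintain pluripotent and neural progenitor cells, whereas the SOXB2 protein SOX21 counteracts SOX2 during neuronal differentiation. SOXC proteins act in progenitors of nerve and mesenchyme, SOXD and SOXE proteins cooperate in cartilage, and SOX18 of group F acts in blood and lymph vessels. SOXD proteins have no transactivation domain of their own, unlike the SOXE protein SOX9.

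Sequences are shown for the 2 called sites downstream of Sox21. For comparison, 4 uncalled sites are shown, namely an intronic site near the 5′ end of Sox5, the site over the Sox11 start, a Sox4 site that was higher in both KO lines and a Sox12 promoter site with a log2 difference near 0. These 4 were picked after their values were seen. Each is the middle 300 bases of the site in GRCm38 (mm10), on the plus strand and read 5′ to 3′. Capitals mark the letters searched for on both strands, namely ACAAAG and ACAATG (SOX cores), TGANTCA (AP-1) and GGGCGG (GC box).
Sox21 site 23.2 kb downstream, chr14:118213443-118213742: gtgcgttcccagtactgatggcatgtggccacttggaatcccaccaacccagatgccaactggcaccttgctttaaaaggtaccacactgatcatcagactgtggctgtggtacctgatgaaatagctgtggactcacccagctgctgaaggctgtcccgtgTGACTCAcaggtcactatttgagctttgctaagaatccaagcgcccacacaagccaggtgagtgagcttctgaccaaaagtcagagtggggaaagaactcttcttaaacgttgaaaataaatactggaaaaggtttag
Sox21 site 23.9 kb downstream, chr14:118212795-118213094: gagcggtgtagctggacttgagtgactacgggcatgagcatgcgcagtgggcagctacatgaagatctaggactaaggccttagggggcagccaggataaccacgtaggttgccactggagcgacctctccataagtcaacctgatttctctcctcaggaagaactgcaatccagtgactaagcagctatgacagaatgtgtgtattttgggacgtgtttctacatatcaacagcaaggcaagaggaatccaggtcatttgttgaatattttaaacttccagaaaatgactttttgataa
Sox5 site 8.6 kb downstream, chr6:144773002-144773301: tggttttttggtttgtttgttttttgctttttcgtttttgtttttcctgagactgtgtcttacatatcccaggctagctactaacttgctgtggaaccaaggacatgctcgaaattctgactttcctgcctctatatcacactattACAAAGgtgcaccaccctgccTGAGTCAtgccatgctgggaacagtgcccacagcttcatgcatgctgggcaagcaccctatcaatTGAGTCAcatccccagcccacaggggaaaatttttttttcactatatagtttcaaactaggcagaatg
Sox11 site over the start, chr12:27342719-27343018: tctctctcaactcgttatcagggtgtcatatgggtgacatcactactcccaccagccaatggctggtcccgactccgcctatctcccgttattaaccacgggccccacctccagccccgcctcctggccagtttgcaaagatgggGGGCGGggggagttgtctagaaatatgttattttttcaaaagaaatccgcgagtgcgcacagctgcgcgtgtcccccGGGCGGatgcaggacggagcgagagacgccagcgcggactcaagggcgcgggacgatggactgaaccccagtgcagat
Sox4 site 35.4 kb downstream, chr13:28917615-28917914: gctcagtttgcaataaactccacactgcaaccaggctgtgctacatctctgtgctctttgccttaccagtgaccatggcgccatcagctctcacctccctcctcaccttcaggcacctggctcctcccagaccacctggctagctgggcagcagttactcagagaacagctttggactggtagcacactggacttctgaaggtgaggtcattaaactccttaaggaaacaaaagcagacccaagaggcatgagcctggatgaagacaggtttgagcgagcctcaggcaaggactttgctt
Sox12 site 0.5 kb upstream, chr2:152398751-152399050: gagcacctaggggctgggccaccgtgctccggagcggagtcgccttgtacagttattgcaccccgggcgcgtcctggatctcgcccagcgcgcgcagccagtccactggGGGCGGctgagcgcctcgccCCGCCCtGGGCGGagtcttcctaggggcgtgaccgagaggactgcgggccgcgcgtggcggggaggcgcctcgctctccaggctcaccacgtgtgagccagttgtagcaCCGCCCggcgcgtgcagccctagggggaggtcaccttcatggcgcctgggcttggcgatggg
The first Sox21 sequence held 1 AP-1 match and the second held none of the searched motifs. The Sox5 sequence held 2 AP-1 matches and 1 ACAAAG. The promoter sequences of Sox11 and Sox12 held 2 and 4 GC boxes, at 22 and 32 CpG dinucleotides.

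Over the 94 Sox sites, a SOX core was present in 30 (31.9%), against 31.7% of all sites. AP-1 was present in 35.1% of Sox sites and 37.7% of all sites, and a GC box in 21.3% and 17.3%. Within 3 kb of a start of the gene, 12 of 24 sites held a GC box and 1 held AP-1 (4.17%), whereas 8 of the 70 other sites held a GC box (11.4%) and 32 held AP-1 (45.7%). Some of these other sites lay over the starts of neighbouring genes, such as Zcchc3 and Lmf1. The Sox5 locus (17 of 27 sites) and the Sox9 locus (5 of 8) held AP-1 most often, and the Sox6 locus held it at 1 of 12. These matches describe the letters and do not show that a factor was bound.

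Sites were compared between KO and WT with limma on log2(value + 1) over the whole table, and the call required both a log2 difference of 1 or more in size and p under 0.01 before adjustment. No site of the table reached an adjusted p under 0.05 (limma, Benjamini-Hochberg), and 2579 had an unadjusted p under 0.05, of which 4 were Sox sites. Of the Sox sites, 2 were called lower in KO, both at Sox21, where the rate over all sites was 0.302%. None was called higher, where the rate was 0.0705%. Both KO values lay below both WT values at 20 Sox sites (21.3%, against 14.3% of all sites) and above them at 11 (11.7%, against 14.6%). The median log2 difference of Sox sites was -0.21, and that of all sites was 0.01. Values of KO replicate 1 lay below both WT values at 43 Sox sites (45.7%, against 32.4% of all sites), and those of KO replicate 2 at 42 (44.7%, against 33.8%).

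Differences were larger at weak sites. At the 41 Sox sites whose mean reached the table's median signal, the median log2 difference was -0.07, against 0.06 for all sites so filtered. At the 53 weaker Sox sites it was -0.35. Sites whose nearest coding start belonged to the Sox gene (80) had a median of -0.28, whereas the 14 sites nearest another coding gene had a median of 0.09. Within 3 kb of a start of the gene the median was -0.29 over 24 sites, and over the other 70 it was -0.17. By position, 47 sites were within 3 kb of an annotated transcript start of any gene, 32 were intronic, 11 intergenic and 4 exonic. At the 50 kb limit of the rule, the last site inside lay 0.3 to 48.0 kb out across the 10 genes (log2 difference -3.40 to 0.49, median -0.38), and the first site outside lay 50.6 to 93.1 kb out (-1.65 to 0.32, median -0.32).

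Locus sums were compared line by line. When the values of each locus were summed, both KO sums lay below both WT sums at 1 of 10 loci, Sox21. The KO replicate 1 sum lay below both WT sums at 4 loci, Sox21 included, and the KO replicate 2 sum at 4, likewise. At 6 loci the KO lines had opposite signs against the WT mean, and at 4 loci (Sox2, Sox21, Sox11 and Sox6) they differed from each other by over 0.5 on the log2 scale. They differed by 0.5 or less at the other 6, some signs rested on values near 0 (0.11 and -0.06 at Sox12), and the WT lines differed by 0.60 at Sox2 and 1.23 at Sox21.

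**Figure D1:**
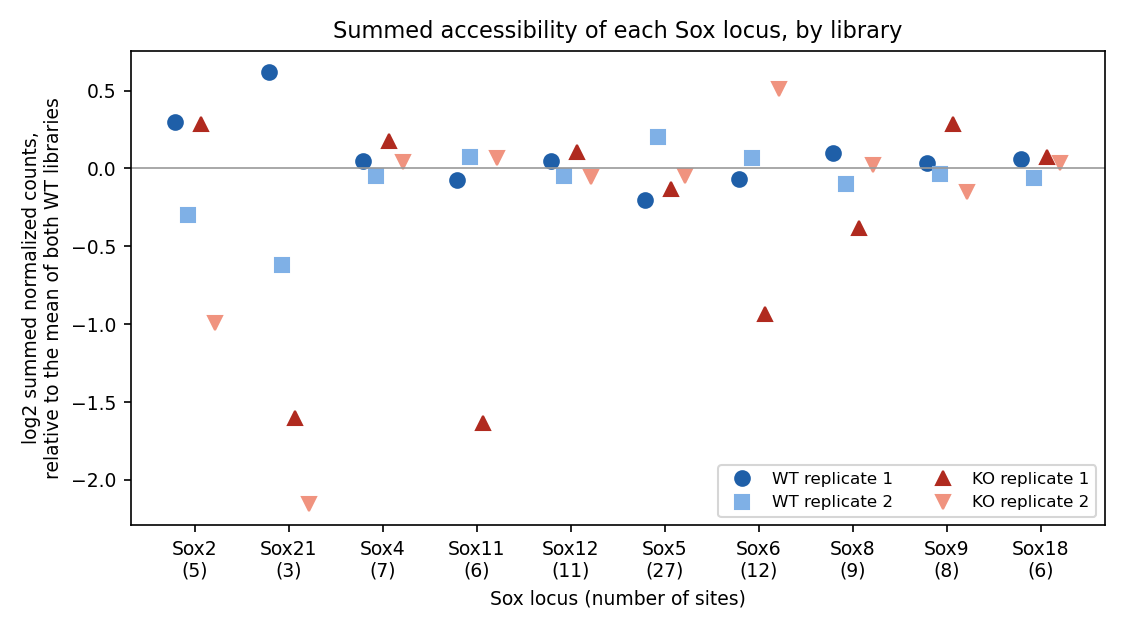
Log2 of the summed normalized counts of each Sox locus per library, relative to the mean of both WT libraries, with the number of sites in brackets. Both KO libraries lie below both WT libraries at Sox21, whereas Sox11 and Sox6 are low in KO replicate 1 and Sox2 in KO replicate 2.

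**Figure D2:**
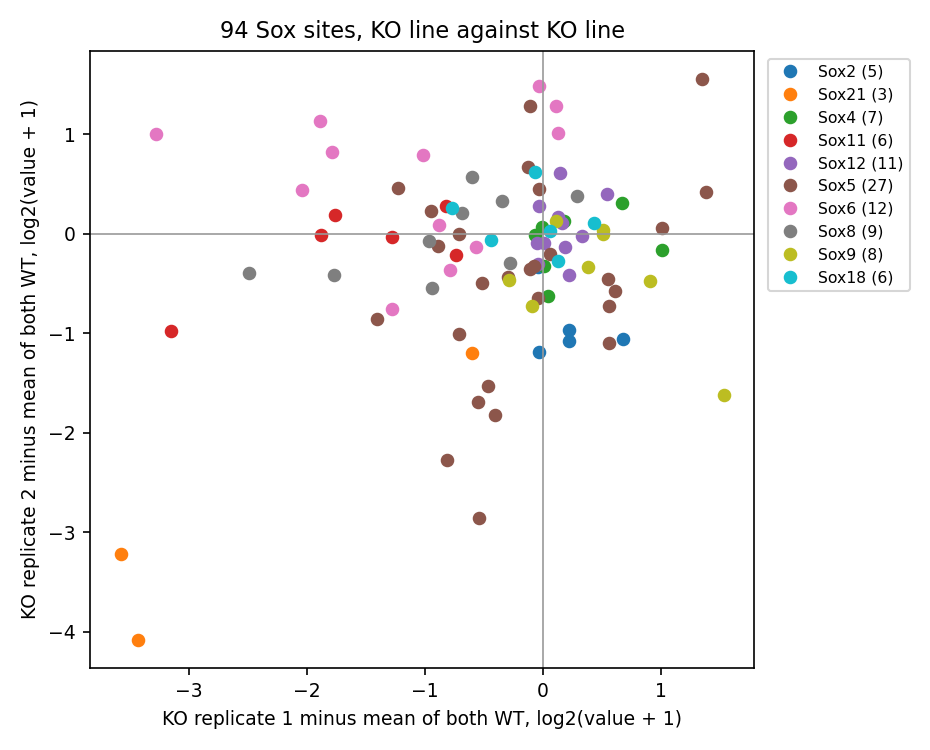
Each of the 94 Sox sites by its difference from the mean of both WT libraries on the log2(value + 1) scale, in KO replicate 1 (horizontal) and KO replicate 2 (vertical), coloured by gene with the number of sites in brackets. The 2 called Sox21 sites stand alone at the lower left, several Sox6 sites lie at the upper left and 4 of the 5 Sox2 sites lie at about -1 on the vertical axis only.

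Levels were compared between genes per kb of site, at the strongest site within 3 kb of a start of each gene. Sox12 had the highest mean over the 4 libraries, 446 normalized counts per kb (range 425 to 461), and its range did not overlap that of Sox9, the next gene. Sox9 followed at 278 (258 to 291) and Sox4 at 273 (246 to 292). Sox11 stood at 236 and had a wide range, 80.0 to 314. Sox8 stood at 199 (178 to 247), Sox21 at 139 (70.2 to 284), Sox2 at 136 (62.8 to 214), Sox6 at 112 (83.6 to 133) and Sox18 at 107 (84.7 to 124). The Sox6 site lay 0.8 kb upstream of that gene, over the start of 1110004F10Rik, so its level is not that of Sox6 alone. Sox5 was lowest at 79.9 (31.7 to 111). From Sox9 down, each gene's range overlapped that of the next, so the order of neighbours was not beyond their spread. The ranking also depends on site length. By counts per site, the Sox4 site (1896 bp) had a mean of 517 and the Sox12 site (609 bp) a mean of 272.

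**Figure D3:**
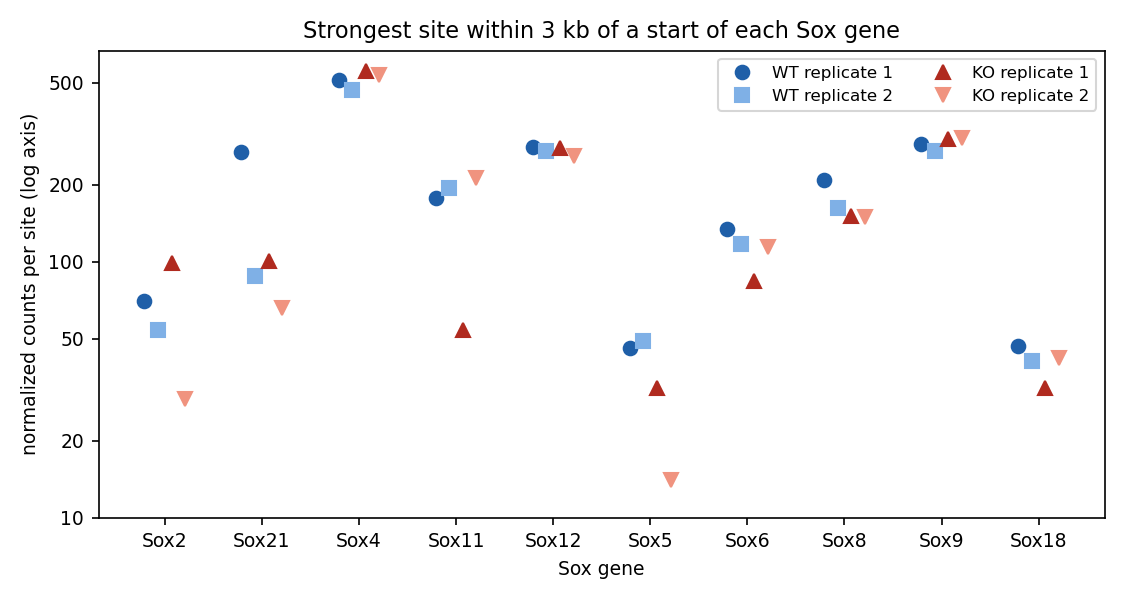
Normalized counts per site (log axis) at the strongest site within 3 kb of a start of each Sox gene, 1 point per library. The 4 libraries are close together at Sox4, Sox12 and Sox9, and Sox2, Sox21, Sox11 and Sox5 have at least 1 library far from the others.

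Sox2 (group B1, chr3:34650405-34652461, plus strand) had 5 sites, all within the long noncoding Sox2ot gene. The site 0.3 kb upstream of the start read 70 and 54 in WT and 99 and 29 in KO (log2 difference -0.19, SE 0.59). The site 0.4 kb downstream read 79 and 51 in WT and 74 and 32 in KO (-0.37, SE 0.49). KO replicate 2 lay below both WT values at 5 of 5 sites (against 33.8% of all sites) and KO replicate 1 at 0 (32.4%). The summed values were 286 and 189 in WT and 283 and 117 in KO, so the low value was that of KO replicate 2 alone. That library was the shallowest, and the part of depth was not tested. At Sox11 and Sox6 the same library had the higher KO sum.

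Sox21 (group B2, chr14:118233232-118237030, minus strand) held the only called Sox sites. The site 23.2 kb downstream of the start (chr14:118213394-118213791) read 170 and 81 in WT and 10 and 6 in KO. Its log2 difference was -3.75 (SE 0.52), a 13.5-fold lower value in KO. The site 23.9 kb downstream (chr14:118212731-118213158) read 109 and 63 in WT and 6 and 8 in KO, a log2 difference of -3.40 (SE 0.49) and 10.6-fold lower. With a pseudocount of 8 in place of 1 the same values gave 7.93-fold and 6.09-fold, so the size of the fold depends on this choice. The KO values of both sites rest on about 9 and 4 and about 6 and 5 reads, against about 200 and 113 and about 128 and 88 in WT. The 2 sites are neighbours, and they count as 1 region rather than 2 observations. The site at 23.9 kb overlaps the lincRNA gene 4933431J24Rik, whereas the site at 23.2 kb overlaps no annotated gene. Both lie within 3 kb of an annotated transcript start.

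The site over the Sox21 start, which also overlaps the lincRNA Gm4675, read 267 and 88 in WT and 101 and 66 in KO (-0.90, SE 0.54). There the value of WT replicate 2 lay between those of the KO libraries, so the genotypes overlapped, and the call was limited to the downstream region. WT replicate 1 exceeded WT replicate 2 at all 3 sites, and the summed values differed between the WT lines by 1.23 on the log2 scale (546 and 232, against 117 and 80 in KO). The median site of chromosome 14 was 0.28 higher in WT replicate 1 than the mean over the 4 libraries. The part of this shift in the Sox21 difference was not tested. After centring every library on the chromosome median, the log2 differences at the called sites were -3.54 and -3.19. Such centring removes only a chromosome-wide shift and not the difference between the WT lines at the locus itself. Without WT replicate 1 neither site was called, at log2 differences of -3.22 and -3.01.

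**Figure D4:**
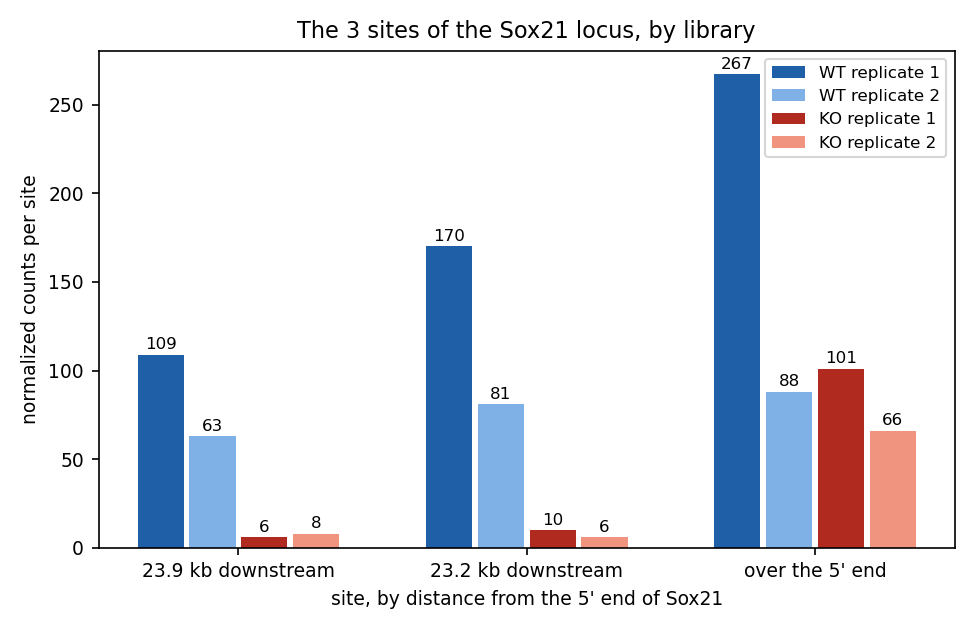
Normalized counts of the 3 sites of the Sox21 locus, 1 bar per library. Both downstream sites read 6 to 10 in the KO libraries and 63 to 170 in the WT libraries, whereas at the 5′ end WT replicate 2 (88) lies between the KO values (101 and 66).

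In the window of 25 consecutive sites centred on the gene, the mean log2 difference was -0.70 (-0.73 for the first KO line, -0.68 for the second). This window holds both called sites. Over the other 23 sites, a choice made after the values were seen, the mean was -0.45 (-0.49 and -0.42 for the KO lines). A mean under -0.58 was found in 3.42% of all such windows and in 1 of the 9 Sox loci with a full window, Sox21, whose mean without the called sites was not under it. The WT lines themselves differed by 0.69 over this window. Not every neighbour was low, as the site 56.0 kb downstream read 34 and 20 in WT and 44 and 24 in KO, whereas the site 199.9 kb upstream read 154 and 71 in WT and 45 and 41 in KO. A weak site 132.1 kb downstream, nearest the coding gene Tgds, read 34 and 20 in WT and 6 and 2 in KO.

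Sox4, Sox11 and Sox12 make up group C. Sox4 (chr13:28948919-28953713, minus strand) had 7 sites that summed to 1113 and 1043 in WT and 1216 and 1107 in KO. Its start site was the strongest of all Sox sites and read 512 and 467 in WT and 554 and 535 in KO (0.15, SE 0.11). The intergenic site 35.4 kb downstream read 95 and 122 in WT and 172 and 134 in KO (0.49, SE 0.27). It had the highest positive difference among Sox sites of at least median signal whose genotypes did not overlap, and it was not called.

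Sox11 (chr12:27334264-27342574, minus strand) was low in 1 KO line. Its start site read 178 and 194 in WT and 54 and 212 in KO (-0.79, SE 0.60). The site 0.3 kb into the gene read 130 and 111 in WT and 32 and 119 in KO. KO replicate 1 lay below both WT values at 5 of 6 sites (against 32.4% of all sites), and KO replicate 2 at 1 (33.8%). The summed values of 412 and 457 in WT, 140 in KO replicate 1 and 454 in KO replicate 2 gave log2 differences of -1.63 and 0.07 for the KO lines. A weak site 48.0 kb downstream read 14 and 20 in WT and 1 and 8 in KO (-2.06, SE 1.14), and it was the only site of the locus at which the genotypes did not overlap.

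Sox12 (chr2:152393611-152398063, minus strand), in contrast, was even across the lines. Its 11 sites summed to 1807 and 1693 in WT and 1883 and 1682 in KO. The strongest site near its start, 0.5 kb upstream, read 281 and 270 in WT and 277 and 259 in KO (-0.04, SE 0.16). The strongest site of the locus, over the start of the neighbouring gene Zcchc3, read 344 and 340 in WT and 330 and 322 in KO. An intronic site 34.0 kb downstream read 110 and 108 in WT and 119 and 123 in KO (0.15, SE 0.25).

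Sox5 and Sox6 (group D) are long genes. Sox5 (chr6:143828425-144781977, minus strand) spans 953.6 kb and held 27 sites, the most of any member. Its summed values overlapped between the genotypes, at 1185 and 1567 in WT and 1242 and 1316 in KO. The sites differed by position in the gene, however. At the 8 sites within 100 kb of the 5′ end all log2 differences were below 0, with a median of -1.12, and both KO values lay below both WT values at 5 of them (62.5%, against 14.3% of all sites). These sites were grouped after their values were seen. The 6 sites at 100 to 200 kb had a median of -0.37, and the 13 sites beyond 200 kb a median of 0.05.

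At the 5′ end, the strongest promoter site read 46 and 49 in WT and 32 and 14 in KO (-1.12, SE 0.50). The site 0.3 kb upstream of it read 24 and 17 in WT and 15 and 5 in KO. The intronic site 8.6 kb downstream read 51 and 49 in WT and 34 and 6 in KO (-1.70, SE 0.77). KO replicate 2, the shallowest library, was the lower line at all of these, and the part of depth was not tested. Over the 8 sites the median was -0.55 in KO replicate 1 and -1.40 in KO replicate 2. A site at 65.1 kb, by comparison, was lower in KO replicate 1 (41 and 73 in WT, 20 and 30 in KO).

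Farther into Sox5, the intronic site at 140.9 kb read 93 and 126 in WT and 75 and 77 in KO (-0.50, SE 0.30), and the values of the KO lines were close. The strongest Sox5 site, at 865.1 kb, read 208 and 229 in WT and 200 and 347 in KO (0.27, SE 0.28). A weak site at 714.1 kb read 12 and 7 in WT and 25 and 29 in KO (1.45, SE 0.59). The site at an internal transcript start, 572.1 kb in, read 25 and 21 in WT and 47 and 24 in KO (0.53, SE 0.48). None of the 27 sites was called.

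**Figure D5:**
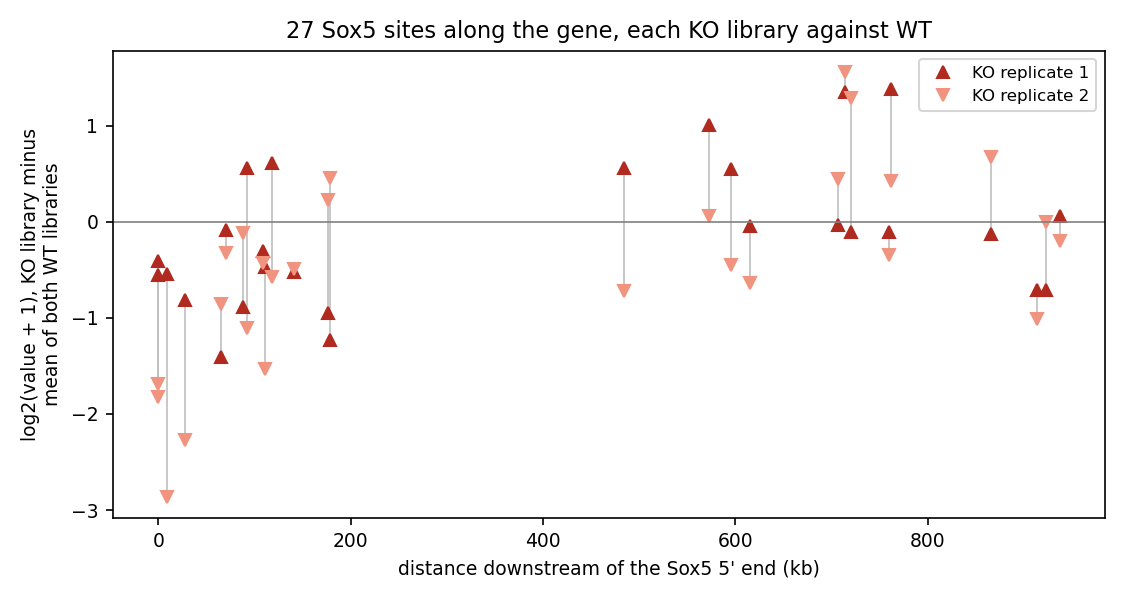
Difference of each KO library from the mean of both WT libraries on the log2(value + 1) scale at the 27 Sox5 sites, against the distance from the 5′ end in kb, with the KO values of a site joined by a line. The sites nearest the 5′ end include the lowest values of KO replicate 2, and beyond 200 kb the points scatter on both sides of 0.

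Sox6 (chr7:115470872-116038796, minus strand, 567.9 kb) had 12 sites at which the KO lines diverged. The sums were 567 and 621 in WT, 311 in KO replicate 1 and 845 in KO replicate 2, or -0.93 and 0.51 against the WT mean. KO replicate 1 lay below both WT values at 9 sites (against 32.4% of all sites) and KO replicate 2 at 3 (33.8%). The intronic site at 304.1 kb read 56 and 69 in WT and 16 and 138 in KO, and the site at 490.0 kb read 18 and 79 in WT and 3 and 77 in KO. The site 0.8 kb upstream of the start, shared with the start of 1110004F10Rik, read 134 and 117 in WT and 84 and 114 in KO (-0.35, SE 0.28).

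Sox8 and Sox9 belong to group E. Sox8 (chr17:25565892-25570686, minus strand) had 9 sites summing to 788 and 688 in WT and 564 and 747 in KO. Its start site, which overlaps 2810468N07Rik, read 209 and 162 in WT and 151 and 150 in KO (-0.29, SE 0.23), with no overlap between the genotypes. The site 30.7 kb downstream read 82 and 84 in WT and 14 and 63 in KO (-1.44, SE 0.67), and one at 29.5 kb read 51 and 71 in WT and 17 and 45 in KO. KO replicate 1 was the lower line at both. The strongest site of the locus lay over the start of Lmf1, 8.2 kb upstream, and read 260 and 207 in WT and 283 and 302 in KO (0.33, SE 0.19).

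Sox9 (chr11:112782224-112787760, plus strand), the master regulator of cartilage, had 8 sites. Its start site read 288 and 271 in WT and 302 and 305 in KO (0.12, SE 0.15). The neighbouring site 0.5 kb upstream read 101 and 112 in WT and 87 and 77 in KO (-0.37, SE 0.27), so the differences of the adjacent sites had opposite signs, and neither was called. The intronic site 23.8 kb upstream, in a gene that overlaps this flank, read 37 and 24 in WT and 88 and 9 in KO. Summed values were 587 and 557 in WT and 697 and 514 in KO.

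Sox18 (group F, chr2:181669836-181671640, minus strand) had 6 sites with sums of 716 and 659 in WT and 723 and 704 in KO. The strongest site near its start, 0.8 kb downstream, read 47 and 41 in WT and 32 and 42 in KO (-0.25, SE 0.37). The site 7.2 kb upstream read 107 and 108 in WT and 145 and 116 in KO (0.27, SE 0.26). The strongest site of the locus, over the start of Rgs19, read 237 and 207 in WT and 231 and 226 in KO (0.04, SE 0.18).

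The rest of the family gave a reference. Of 10 other SOX genes, 7 had sites by the same rule, 44 in all, and Sox3, Sox17 and Sry had none. None of the 44 sites was called in either direction, and their median log2 difference was -0.04. Both KO values lay below both WT values at 12 of them (27.3%), against 21.3% of the 94 Sox sites and 14.3% of all sites. Both lay above at 8 (18.2%), against 11.7% and 14.6%. Log2 differences were below 0 at 59.1% of the 44 sites, 67.0% of the Sox sites and 49.3% of all sites. KO replicate 1 lay below both WT values at 36.4% of the 44 sites and 45.7% of the Sox sites, against 32.4% of all sites. For KO replicate 2 these shares were 47.7% and 44.7%, against 33.8%. The promoter site of Sox15 read 115 and 94 in WT and 57 and 86 in KO (-0.56), that of Sox30, a testis gene, 73 and 60 in WT and 37 and 51 in KO (-0.60), and that of Sox7 62 and 49 in WT and 45 and 39 in KO (-0.39). The promoter site of Sox13 read 150 and 81 in WT and 118 and 89 in KO (-0.10).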

How the data were processed

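ATAC-Seq libraries of 2 WT and 2 KO imMEF lines were analysed. Replicates were numbered by accession, without pairing. Per the study methods and processing notes, paired-end reads were aligned by the authors to mm10 with BWA 0.7.12, peaks were called with MACS2 2.1.0 and counts were tested with DESeq2. The handling of duplicates and of the Tn5 offset was not given in the sources used here. The deposited values are a score: the authors normalized the counts of each library by a scaling factor and kept whole numbers. The deposited table also holds the authors' log2 fold changes, p-values and adjusted p-values for the genotype comparison, which were not used.

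The median site length was 440 bp. Approximate read depth was recovered from the pattern of frequent and absent low whole numbers that scaling leaves. Whether reads or fragments were counted is unknown. All 82325 sites were fitted with limma 3.58.1 (R 4.3.3) with an intensity trend on log2(value + 1), without a filter, and differences are KO minus WT on that scale, which understates changes at low values. The 2 lines per genotype limit precision, and SEs are limma's. The fit was checked for recovery on simulated data with a common spread. A log2 difference of 3 was set at sites of at least median signal, so weak sites and smaller differences were not covered. Genes and transcripts were from GENCODE on GRCm38 (mm10), and sequence from the RefSeq GRCm38 genome. The genes, lists, motifs and tests were chosen with earlier results of these data known. Named sites were, for each gene, the strongest site within 3 kb of a start, the strongest site and every called site, plus the 5 largest falls and 5 largest rises among non-overlapping sites of at least median signal. Other sites were named after their values were seen. Alternatives were a pseudocount of 8, a signal filter, other scalings, other distances and leaving out each library. Tables were handled in Python 3.11.15.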

Additional observations from a re-analysis of the deposited data

How the results depend on the processing

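Again 2 Sox sites were called lower at a pseudocount of 8, with log2 differences of -2.99 and -2.61 at the Sox21 sites. The count was also 2 with equal library totals, after quantile normalization, after centring on chromosome medians and at 25 or 100 kb. These 2 sites are 1 region. Over all sites, 273 were called lower at a pseudocount of 8, 315 with equal totals, 263 after quantile normalization and 242 after centring. The count of Sox sites called lower was 1 with only sites at or above the median signal, where the weaker Sox21 site drops out. All sites so filtered gave 76 called lower. At an adjusted p under 0.05 the count of Sox sites was 0. Leaving out each library in turn gave 0 to 4 called sites, with 0 without WT replicate 1, 2 without WT replicate 2, 3 without KO replicate 1 and 4 without KO replicate 2. Over all sites these fits called 20, 14, 220 and 548 lower, against 249 with all libraries. The lone library of the shortened group is assumed to vary like the others. An alternative added after the data were seen, leaving out the Sox21 locus, gave 0 called sites. None was called higher in any alternative.

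Sites with both KO values below both WT values numbered 20, 8 with the signal filter (19.5%, against 10.2% of all sites so filtered) and 33 to 43 when a library was left out (35.1% to 45.7%, against 28.7% to 33.8% of all sites). Those above numbered 11, 7 with the signal filter (17.1%, against 19.6% of all sites so filtered) and 7 at 25 kb (9.21%, against 14.6%). When a library was left out they numbered 17 to 29 (18.1% to 30.9%, against 29.5% to 34.7%). Equal totals gave 26 below and 8 above (27.7% and 8.51%, against 19.0% and 10.9% of all sites). The median log2 difference of all sites was then -0.061, against 0.0062 in the main fit. The median log2 difference of -0.21 was -0.17 at pseudocount 8, -0.07 with the filter, -0.28 with equal totals, -0.19 after quantile normalization, -0.17 after chromosome centring, -0.23 at 25 kb, -0.13 at 100 kb and -0.19 without Sox21. It was -0.17 to -0.07 when a library was left out. At 100 kb the Sox21 sum differed by -0.55, the added sites being less changed. Without KO replicate 2 the sums of Sox11 and Sox6 differed by -1.63 and -0.93, and without KO replicate 1 by 0.07 and 0.51. The cause of the differences between lines was not tested. No paired analysis was possible because the genotypes share only 1 line number in the labels (that of WT replicate 1 and KO replicate 2), whose meaning is not stated. The shallower KO libraries limit what can be seen at weak sites.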
